A study of Mus musculus with 2 samples.

Results

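The genes described here encode the machinery of mitosis: mitotic cyclins and kinases, the spindle checkpoint, centromere and kinetochore proteins, mitotic kinesins, activators of the anaphase promoting complex and cytokinesis factors. The list holds 42 genes, set by name and not by their values, of 20738 genes with a named probe on the array. A gene's members are all probes that carry its symbol in the platform annotation. Of the 42 genes, 41 had at least 1 such probe (58 probes on 67 spots), and all 41 gave a signal above the detection limit on both arrays. No probe used here carried the symbol of Ccnb1, which encodes cyclin B1. The detection limit was the median signal of all probes of an array, 14.2 units in the wild-type-labelled library and 14.6 units in the knockout-labelled library.

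RNA came from naive CD4 T cells of C57BL/6 mouse spleens, labelled either Gfi1 wild type or Gfi1 knockout. Both cultures were stimulated for 2 days with plate-bound antibody against TCR-β, a chain of the T cell receptor (3 µg/ml), antibody to CD28 (1 µg/ml) and IL-2 (10 ng/ml). Both also received antibodies that neutralise IL-4 (5 µg/ml) and IFN-γ (5 µg/ml). The nature of the Gfi1 allele, the age of the mice and the number of mice behind each culture are not stated in the labels. Each genotype was read on 1 one-colour expression array, so no spread between cultures can be had, no test can be made, and every value below describes these 2 libraries. Differences are on the log2 scale, knockout-labelled minus wild-type-labelled, with each array first scaled to its 75th percentile (263 and 269 units).

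A naive T cell is quiescent. After stimulation through its receptor it grows, enters the cell cycle and divides repeatedly, and within the cycle the genes of mitosis are transcribed late, between DNA replication and division. Cyclin A and cyclin B switch on the kinase Cdk1, the Polo and Aurora kinases build the spindle, and the kinetochore joins chromosomes to microtubules. The spindle checkpoint holds the anaphase promoting complex inactive until all chromosomes are attached, and that complex then marks securin and cyclin B for destruction. Many of these promoters share elements bound by the factor NF-Y and by the DREAM and MuvB complexes, of which DREAM represses them in resting cells. In bulk RNA, fewer cells in mitosis and less RNA per cell cannot be told apart.

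Several facts of the whole comparison bear on the values below. The Gfi1 probe read 4260 units in the wild-type-labelled library and 18100 units in the knockout-labelled library, against the label if the probe lies in the deleted part. Its place is not stated in the labels, so the libraries are named by their labels, and every direction rests on those labels. Xist read 447 units in the wild-type-labelled library and 3.86 units in the other, and the Y-linked Eif2s3y read 2.91 and 3870 units, so genotype label and sex-linked readings differ together. Of 11 CD4 T cell markers 10 were detected, with a summed signal of 196867 units in the wild-type-labelled library and 167247 units in the other. All 10 were detected on both arrays, Cd4 among them, and no probe carried the symbol of Lck. Of CD8 T cell and NK cell markers, all 8 read higher in the knockout-labelled library, with summed signals of 277 and 936 units, and Cd8a, Klrk1, Klrb1c and Ncr1 lay below the detection limit in the wild-type-labelled library. Of 9 B cell markers 7 were detected and 6 were higher, with summed signals of 527 and 1135 units. Without Ms4a1 and Blnk the other 5 summed to 478 and 528 units, and Cd79b was lower. Pax5 lay below the detection limit on both arrays. Of 8 myeloid markers 5 were detected, with sums of 324 and 645 units (312 and 310 without Mpeg1), and of 6 erythroid markers 3, with sums of 512 and 382 units. Lyz2, Cd14, C1qa and Alas2 lay below the detection limit on both arrays, and no probe carried the symbol of Hbb-b1. The part of these cells in the differences below was not tested.

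Mitotic genes read slightly lower in the knockout-labelled library, by amounts that differed from gene to gene and stayed under 2-fold. Of the 41 genes measured, 35 had a difference below 0 and 6 above 0, with a median of -0.16 and a middle spread (quartiles) from -0.21 to -0.04. Over all 13411 genes detected the median was -0.05, 58.4% lay below 0 and 41.6% above. Of the 41 mitotic genes, 30 lay below the median of all genes. Restricted to signals of at least 500 units on an array (6831 genes), 63.4% lay below 0 and 36.6% above. Of the 35 mitotic genes this bright 30 lay below 0 and 5 above, with a median of -0.15. None of the mitotic genes was 2-fold lower or 2-fold higher, against 1.52% and 3.62% of all genes. At a fold of 5/4, 3 of 41 genes were lower (Cdc25c, Ttk and Kif20a, 7.32%, against 12.6% of all genes) and 2 were higher (Pttg1 and Ect2, 4.88%, against 14.1%). Among the bright genes 0.234% were 2-fold lower and 1.98% 2-fold higher, with none of the mitotic genes, and at 5/4-fold 7.1% were lower and 8.99% higher, with 1 mitotic gene each way. With 41 genes, a count of 0 past 2-fold is near these shares.

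**Figure D1:**
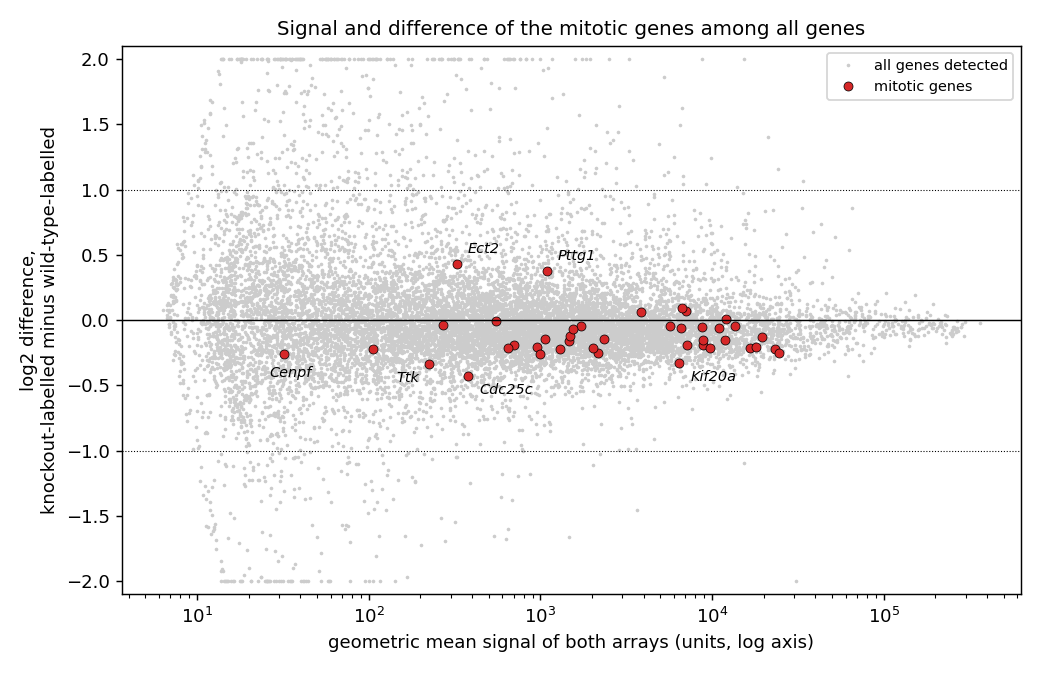
Each grey point is 1 of the 13411 genes detected and each red point 1 of the 41 mitotic genes, placed by the geometric mean signal of both arrays (units, log axis) and the log2 difference, knockout-labelled minus wild-type-labelled, with values beyond 2 drawn at 2 and dotted lines at 2-fold. Most red points lie just below 0, all lie within 2-fold, and Pttg1 and Ect2 stand above the others.

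The only error that can be given is the spread within the arrays. Bub1, a kinase of the spindle checkpoint, was printed on 10 spots and shows it directly. Its spots read 1670 to 1820 units in the wild-type-labelled library and 1660 to 1780 units in the knockout-labelled library, ranges that overlap almost fully. Their differences ran from -0.09 to 0.03, with a mean of -0.04 ± 0.03 (SD, 10 spots). Such repeated printing, available for 399 probes with 10 spots each, gave a median spot-to-spot SD of the difference of 0.35 at 15 to 50 units, 0.11 at 50 to 500 units, 0.05 at 500 to 5000 units and 0.04 above 5000 units. Each gene was set against 2 such SDs at its signal, the geometric mean of its probes where it has several. Among the 41 mitotic genes 24 were lower, 3 were higher and 14 lay within, while 30.3% of all genes detected were lower and 20.1% higher by as much. Of the 35 mitotic genes that reached 500 units 22 were lower and 2 higher by this measure, against 42.6% and 22.7% of all genes as bright, so passing it was common outside the list too. The 3 higher genes include Ect2, whose bright probe was lower (-0.09). The lower genes include Tpx2, placed at 691 units in the wild-type-labelled library by the mean of a bright probe (-0.04) and a dim one (-0.38). Spread between cultures is not in these SDs.

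The promoters of these genes were read from a RefSeq table of assembly GRCm38.p6, since shared elements are a property that the choice of genes did not use by rule. The table holds 250 bases before and 50 bases after the start of 34 of the 42 genes, and the first window listed for a gene was taken. Elements of the promoters are printed for genes of different roles: 7 that carry both elements, of which Racgap1 was higher, and Pttg1. Each stretch has 200 bases, 5′ to 3′ along the gene's strand, from 150 bases before the start. Capitals mark TTTGAA, the core of the cell cycle homology region (CHR) that MuvB binds, and CCAAT, the box that NF-Y binds, on either strand (as TTCAAA or ATTGG where they lie on the opposite strand).

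The Ccnb2 stretch lies at chr9:70421505-70421704 on the minus strand, that of Aurka at chr2:172370521-172370720 on the minus strand, and that of Bub1b at chr2:118598061-118598260 on the plus strand. Cenpa and Kif11 are at chr5:30666736-30666935 and chr19:37376232-37376431, both on the plus strand. Cdc20, Racgap1 and Pttg1 are at chr4:118437294-118437493, chr15:99651607-99651806 and chr11:43425932-43426131, all on the minus strand.
Ccnb2: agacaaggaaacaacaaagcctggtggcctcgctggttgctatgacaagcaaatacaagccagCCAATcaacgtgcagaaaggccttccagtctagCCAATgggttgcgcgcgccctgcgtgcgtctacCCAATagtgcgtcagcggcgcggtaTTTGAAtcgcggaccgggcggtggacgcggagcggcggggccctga
Aurka: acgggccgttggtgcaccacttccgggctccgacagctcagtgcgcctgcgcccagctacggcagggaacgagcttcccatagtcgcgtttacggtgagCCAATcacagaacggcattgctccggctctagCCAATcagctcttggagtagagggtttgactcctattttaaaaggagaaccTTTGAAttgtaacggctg
Bub1b: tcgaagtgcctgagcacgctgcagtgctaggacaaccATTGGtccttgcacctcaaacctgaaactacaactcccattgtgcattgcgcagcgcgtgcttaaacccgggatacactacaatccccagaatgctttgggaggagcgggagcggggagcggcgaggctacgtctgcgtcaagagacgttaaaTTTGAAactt
Cenpa: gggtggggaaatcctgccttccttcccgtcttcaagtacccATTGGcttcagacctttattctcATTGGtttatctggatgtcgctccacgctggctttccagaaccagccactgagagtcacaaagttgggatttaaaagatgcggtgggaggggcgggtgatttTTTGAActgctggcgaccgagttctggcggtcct
Kif11: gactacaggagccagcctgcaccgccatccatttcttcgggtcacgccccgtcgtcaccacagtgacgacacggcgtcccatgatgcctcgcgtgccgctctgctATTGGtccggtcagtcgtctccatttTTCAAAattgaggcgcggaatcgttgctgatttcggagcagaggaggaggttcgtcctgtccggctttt
Cdc20: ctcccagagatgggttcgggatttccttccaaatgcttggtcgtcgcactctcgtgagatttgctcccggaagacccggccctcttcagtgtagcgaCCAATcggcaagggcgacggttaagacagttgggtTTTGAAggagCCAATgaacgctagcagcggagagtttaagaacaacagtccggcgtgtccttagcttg
Racgap1: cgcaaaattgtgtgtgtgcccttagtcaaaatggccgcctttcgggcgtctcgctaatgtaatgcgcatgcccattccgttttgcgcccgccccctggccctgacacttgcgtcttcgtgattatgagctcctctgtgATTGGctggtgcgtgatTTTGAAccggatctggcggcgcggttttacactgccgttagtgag
Pttg1: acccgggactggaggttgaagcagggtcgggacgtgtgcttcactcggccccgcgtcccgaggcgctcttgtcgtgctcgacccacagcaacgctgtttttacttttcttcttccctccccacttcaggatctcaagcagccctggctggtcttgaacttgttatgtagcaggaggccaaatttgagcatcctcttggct

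Counted with the start as 0, the Ccnb2 stretch shows NF-Y boxes at -87, -54 and -21 and a CHR at 4. Aurka has boxes at -51 and -19 and a CHR at 32, and Cdc20 a CHR at -18 between boxes at -53 and -8. Bub1b has a box at -113 and a CHR at 40, and Cenpa boxes at -109 and -86 and a CHR at 16. Kif11 has a box at -45 and a CHR at -19, Racgap1 a box at -12 and a CHR at 5. Pttg1 holds neither run of letters in its 300-base window, and the same is true of Birc5, Mad2l1, Nuf2 and Nusap1, all of which were lower. A match describes letters only and is no evidence of binding.

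The homology region was common among the mitotic genes: 25 of 34 promoter windows (73.5%) held TTTGAA, against 18.1% of the 27025 genes in the table and 12.5% of the 10702 genes detected on the arrays that the table holds. CCAAT stood in 26 of 34 windows (76.5%), against 37.9% and 39.1%, and at least 2 such boxes in 17 of 34 (50%), against 12.2% and 14.8%. Both elements together were in 22 of 34 windows (64.7%), against 7.12% and 5.29%. The variant TTTAAA stood in 9 of 34 windows (26.5%), against 13.2% and 9.27%. Both strands were searched, TTTAAA, which reads the same on both, was counted once a place, and different words were counted separately where they overlapped. Of the 31 CHR matches 24 began within 50 bases of the start, and of the 57 CCAAT matches 40 began in the 100 bases before it. Within the list, the 25 measured genes with a CHR had a median difference of -0.16 and the 8 without one -0.08, ranges that overlap widely (-0.34 to 0.43 and -0.22 to 0.38). TTTGAA was not particular to this list, as lists of related genes described below show. It stood in 15 of 23 windows of other spindle and centrosome genes (65.2%) and 11 of 26 of other kinetochore genes (42.3%). The shares were 35.3% for cohesin and condensin, 25% for mitotic entry and 18.8% for the anaphase promoting complex.

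**Figure D2:**
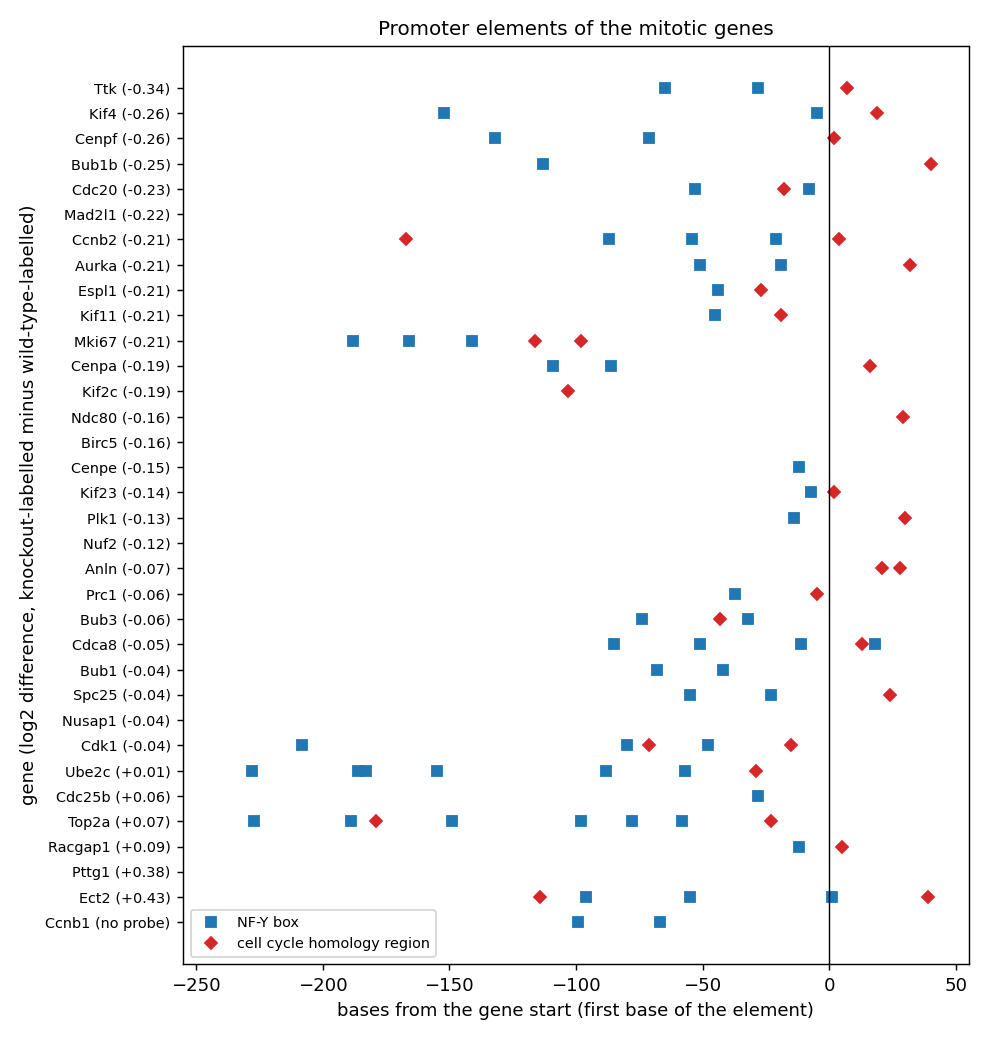
Positions of NF-Y boxes (blue squares) and cell cycle homology regions (red diamonds) are drawn in bases from the gene start for the 34 mitotic genes in the promoter table, ordered by log2 difference, knockout-labelled minus wild-type-labelled. Boxes gather before the start and homology regions around it, both among genes with lower and with higher values, and the rows of Birc5, Mad2l1, Nuf2, Nusap1 and Pttg1 hold neither.

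Among the mitotic cyclins and the regulators of Cdk1, the cyclins were lower and Cdk1 was not separable from 0. Ccna2, encoding cyclin A2, read 9380 units in the wild-type-labelled library and 8400 in the knockout-labelled library (-0.19). Ccnb2, encoding cyclin B2, read 17700 and 15600 units (-0.21). Both cyclin differences exceeded 2 spot SDs. Cdk1, the kinase these cyclins activate, differed by -0.04 ± 0.06 (SD over 3 probes), and its brightest probe read 3700 and 3760 units; with cyclic loess scaling its mean was 0.03. The phosphatases that remove inhibitory phosphates from Cdk1 stood apart from each other: Cdc25c read 436 and 332 units (-0.43), the lowest difference of the list, and Cdc25b read 3750 and 4010 units (0.06). Both Cdc25 probes, like the single probes of Aurka, Aurkb and Kif4, lie on spots with feature numbers above 50000, where dim probes passed 2-fold in 15.5% of cases, against 4.66% at lower numbers. At 500 units or more, as for Cdc25b, Aurka and Kif4, the shares were 2.47% and 1.81%. The Cdc25b difference was within 2 spot SDs.

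The Polo and Aurora kinases were lower together. Plk1, which acts at centrosomes, kinetochores and the midzone, read 20200 units under the wild-type label and 18900 units under the knockout label (-0.13). Aurka, the Aurora kinase of the spindle poles, read 10400 and 9170 units (-0.21). Aurkb, the Aurora kinase of the chromosomal passenger complex, read 113 and 99.0 units (-0.22), and at that signal the difference was within 2 spot SDs. Tpx2, the spindle protein that activates Aurora A, had 2 probes that differed from each other: the first read 4680 and 4660 units (-0.04), and the other, dimmer one read 102 and 80.0 units (-0.38). The other subunits of the passenger complex were uneven. Incenp, its scaffold, was lower on both of its probes (22900 and 19600 units on one, 30900 and 26700 on the other), a mean of -0.25 ± 0.01 (SD, 2 probes). Birc5, encoding survivin, differed by -0.16 ± 0.05 (SD, 3 probes), with its brightest probe at 45200 and 39800 units. Cdca8, encoding borealin, differed by -0.05 ± 0.03 (SD, 2 probes), about the median of all genes, and reached 0.00 with cyclic loess.

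The spindle checkpoint genes divided into a lower trio and a pair at the level of all genes. Ttk, encoding the kinase Mps1, read 248 units in the wild-type-labelled library and 201 in the knockout-labelled library (-0.34). Bub1b, encoding BubR1, read 2330 and 2000 units (-0.25). Mad2l1, encoding Mad2, which sequesters the activator Cdc20, differed by -0.22 ± 0.15 (SD, 3 probes), with probes at -0.40, -0.15 and -0.13. These differences exceeded 2 spot SDs. Bub3, the partner of Bub1 and BubR1, read 11100 and 10900 units (-0.06), and Bub1 stood at -0.04 as given above, reaching 0.02 with cyclic loess.

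All 7 centromere and kinetochore genes lay below 0, from -0.26 to -0.04. Cenpa, the histone H3 variant that marks centromeres, read 7540 units with the wild-type label and 6750 units with the knockout label (-0.19). Cenpe, the kinetochore kinesin, read 12400 and 11400 units (-0.15). Cenpf, a large kinetochore protein, was read by a dim probe at 34.6 and 29.6 units (-0.26), a difference within the spot SD of 0.35 at that signal. The Ndc80 complex binds microtubules and has 4 subunits. The genes Ndc80, Spc24 and Nuf2 differed by similar amounts, and Spc25 by less. Ndc80 read 1540 and 1410 units (-0.16), Spc24 2440 and 2260 units (-0.14), and Nuf2 1530 and 1440 units (-0.12). Spc25 read 13600 and 13500 units (-0.04), within 2 spot SDs, and passed 0 with cyclic loess (0.01). A further Nuf2 probe lay below the detection limit on both arrays, and including it without a detection limit turned the mean of Nuf2 to 0.75.

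All 5 mitotic kinesins were lower, each by more than 2 spot SDs, a limit that 42.6% of all genes reaching 500 units passed in that direction. Kif20a, which carries the passenger complex to the midzone, read 7150 units in the wild-type-labelled library and 5830 in the knockout-labelled library (-0.33). Kif4, a chromosome-bound kinesin encoded on the X chromosome, read 1070 and 915 units (-0.26). Kif11, the motor that pushes spindle poles apart, read 1010 and 895 units (-0.21). These are single-probe readings, each lower under the knockout label. Kif2c, which removes tubulin from microtubule ends, was lower on both probes (968 and 869 units on one, 565 and 507 units on the other), with a mean of -0.19. Kif23, a motor of the midzone, read 1100 and 1020 units (-0.14). Leaving out Kif4, whose chromosome differs between the libraries in its Xist reading, left 34 of 40 mitotic genes below 0 and a median of -0.15.

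Genes that act at the passage to anaphase differed in opposite directions. Cdc20, the activator of the anaphase promoting complex, read 24800 units under the wild-type label and 21700 units under the knockout label (-0.23). Espl1, encoding separase, the protease that opens cohesin, read 2160 and 1910 units (-0.21). Ube2c, the ubiquitin-conjugating enzyme of that complex, stood at 0.01 ± 0.04 (SD, 2 probes), near 0. Pttg1, encoding securin, the inhibitor of separase, was higher on both of its probes. Its brighter probe read 9550 units in the wild-type-labelled library and 13300 units in the knockout-labelled library (0.45), and its dimmer probe read 94.0 and 119 units (0.31). The Pttg1 mean was 0.38 ± 0.10 (SD, 2 probes), against -0.21 for Espl1, its target. Pttg1 kept a positive difference in all 13 alternative settings run on it, from 0.36 to 0.45.

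The 4 genes grouped under midzone and cytokinesis were near 0 or above it. Kif23 and Kif20a, which also act at the midzone, were counted with the kinesins and were lower (-0.14 and -0.33). Prc1, which bundles midzone microtubules, read 6630 and 6490 units (-0.06), and Anln, the scaffold anillin, read 1560 and 1520 units (-0.07). Both were within 2 spot SDs. Racgap1, the partner of Kif23 in centralspindlin, was higher on both probes (4410 and 4850 units on one, 9270 and 10000 on the other), with a mean of 0.09 ± 0.02 (SD, 2 probes). Ect2, the exchange factor that Racgap1 recruits to activate RhoA, had probes that disagreed. The probe of its RefSeq transcript read 2180 and 2090 units (-0.09). The other, a dim probe on a spot above feature number 50000, read 35.5 and 70.1 units (0.95). The mean of 0.43 for Ect2 rests on that spot, and without spots above 50000 the gene stood at -0.10.

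Of the proliferation markers and chromosome proteins, Mki67 was lower and the others lay near 0. Mki67, encoding the antigen Ki-67, read 21100 and 17800 units on one probe and 17400 and 16200 units on the other, a mean of -0.21 ± 0.10 (SD, 2 probes). Top2a, the topoisomerase that untangles chromosomes, read 6790 and 7280 units (0.07). Nusap1, a microtubule-binding spindle protein, read 5730 and 5690 units (-0.04). Foxm1, a transcription factor that binds the MuvB complex at these promoters, stood at -0.01 ± 0.03 (SD, 2 probes). Top2a, Nusap1 and Foxm1 were within 2 spot SDs, and both Nusap1 and Foxm1 passed 0 with cyclic loess (0.02 and 0.06), Foxm1 also without spots above 50000.

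**Figure D3:**
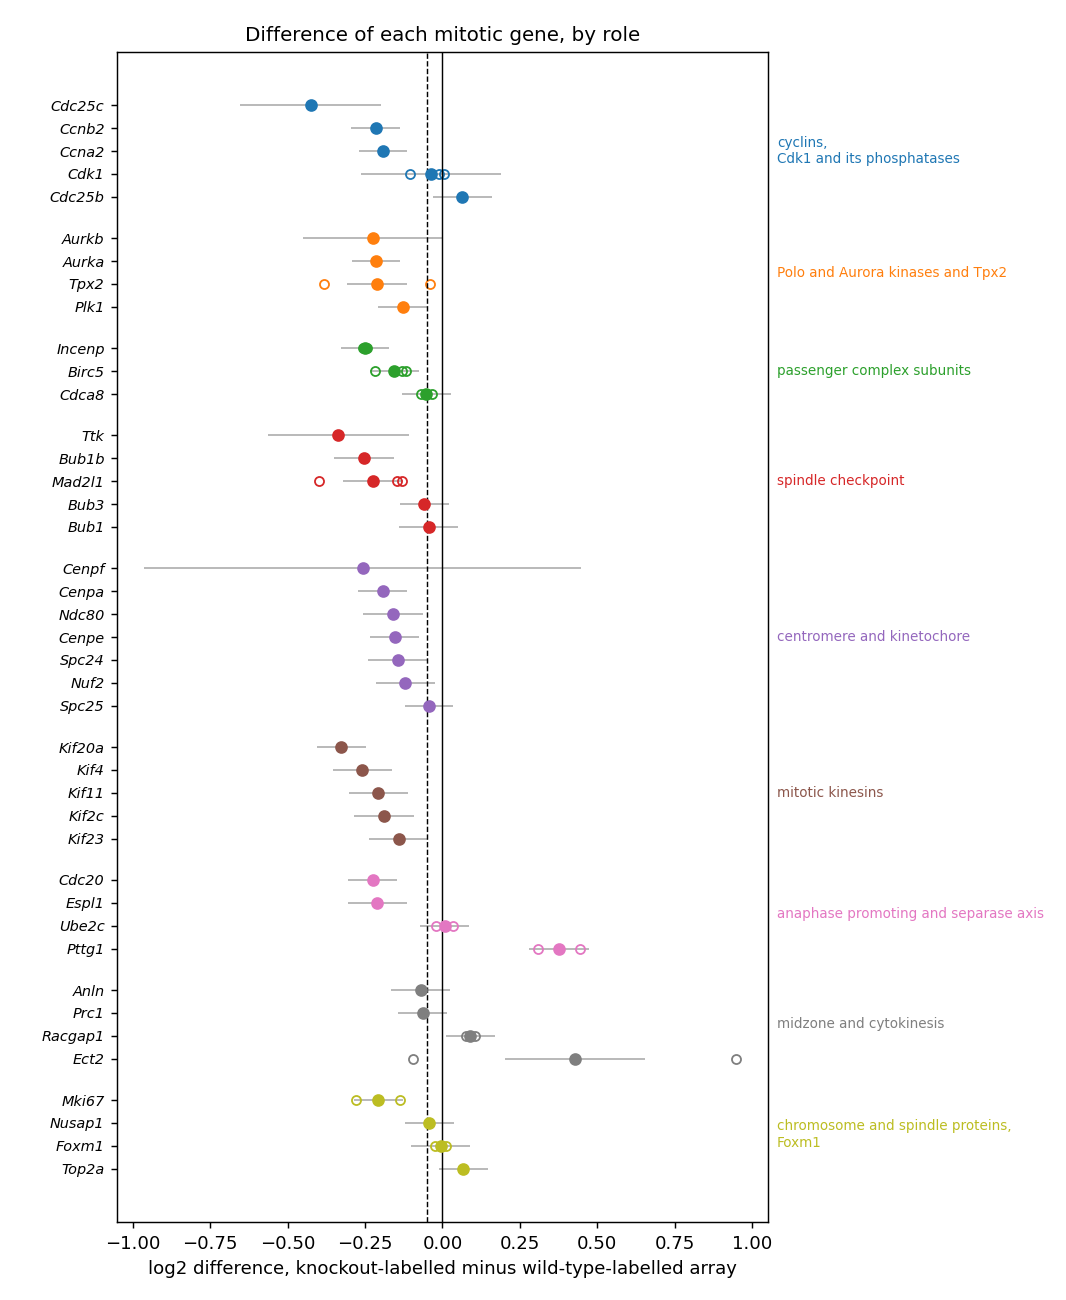
Filled points give the log2 difference, knockout-labelled minus wild-type-labelled, of each of the 41 genes, grouped by role. Open points are the single probes of genes with several, grey bars reach 2 spot SDs at the gene's signal to each side, the solid line is 0 and the dashed line the median of all genes (-0.05). The kinesins, kinases, checkpoint and kinetochore genes lie left of 0, and Pttg1 and Ect2 lie farthest right.

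Agreement between probes was partial. Of 57 probes above the detection limit 47 were lower and 10 higher. Of 13 genes with several such probes, 9 had all of them on the same side of 0. Over the alternative settings (up to 13 a gene), 28 of the 35 lower genes and 4 of the 6 higher genes never changed sign. Among the lower genes those that did were Bub1, Cdca8, Cdk1, Foxm1, Nuf2, Nusap1 and Spc25, and among the higher genes Ect2 and Ube2c. None of these counts was made over all probes or all genes, and 58.4% of all genes detected lay below 0.

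The rest of the mitotic apparatus, taken from lists chosen by function, differed by similar small amounts. Of 29 further centromere and kinetochore genes detected, 26 were lower, 3 were higher and the median was -0.16. Cenpu, of the inner kinetochore, differed by -0.43 ± 0.07 (SD, 2 probes), Knl1, the platform for Bub1 and BubR1, by -0.39, and Cenpi by 0.22. Of 22 cohesin and condensin genes 19 were lower, with a median of -0.18. The lowest of them were the condensin II subunit Ncapg2 (-0.42, on a spot above 50000) and Sgo1, encoding the shugoshin that protects cohesin (-0.36). Of 26 spindle and centrosome genes 22 were lower, with a median of -0.13. They ran from Depdc1b (-0.48) and the kinesin Kif18a (-0.44, on a spot above 50000) to Gtse1 (0.24). None of the genes of these lists passed 2-fold in either direction.

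Subunits and regulators of the anaphase promoting complex had a smaller median of -0.10, with 15 of 16 genes lower. Among them Anapc7 stood at -0.37 ± 0.19 (SD, 2 probes) and Ube2s, which extends ubiquitin chains for this complex, at 0.06. Genes of mitotic entry and checkpoint control were split, 9 lower and 7 higher, with a median of -0.11. Ccnf, encoding cyclin F, read 6230 units under the wild-type label and 4570 units under the knockout label (-0.48). Wee1, the kinase that inhibits Cdk1, stood at -0.36, on a spot above 50000, and Pkmyt1, a related kinase, at 0.08. In all, 91 of the 109 genes detected in these 5 lists were lower, 18 were higher and the median was -0.14, close to the -0.16 of the 41 mitotic genes.

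Genes of DNA replication, which belong to the phase before mitosis, differed by at least as much. Of 40 detected 36 were lower, with a median of -0.20, none of them past 2-fold. Tyms, encoding thymidylate synthase, stood at -0.59, Cdc6, which loads the replicative helicase, at -0.42 ± 0.13 (SD, 2 probes), and Tk1, encoding thymidine kinase, at -0.35. The promoters of both lists shared the NF-Y box, with CCAAT in 22 of 32 replication promoters (68.8%) and at least 2 boxes in 14 of 32 (43.8%). TTTGAA stood in 4 of 32 replication promoters (12.5%), against 25 of 34 mitotic ones. The letters TTTGGCGC or TTTCCCGC, forms of the E2F site, stood in 10 of 32 replication promoters (31.2%), in 0 of the 34 mitotic ones and in 1.63% of all genes in the table. Over 10 detected CD4 T cell markers the median difference was -0.22, with 9 lower, so a shift of this size was not particular to genes of the cell cycle.

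Regulators upstream of the mitotic genes had no common direction. Over 19 E2F, DREAM and MuvB genes the median was -0.04, with 11 lower and 8 higher. Mybl2, encoding B-Myb, which joins MuvB to activate mitotic promoters, read 10900 and 9540 units on one probe and 1050 and 746 units on the other (-0.38 ± 0.21, SD over 2 probes). Tfdp2, a dimer partner of E2F factors, stood at -0.69 on both of its probes. Among the higher genes of this list, Lin54 read 1030 and 1390 units (0.40) and E2f5 163 and 203 units (0.28). The probes of E2f7 disagreed and are described below. Of 7 CDK inhibitor genes 4 were higher, 3 were lower and the median was 0.16. Cdkn1a, encoding p21, had its brightest probe at 1601 units in the wild-type-labelled library and 3009 in the knockout-labelled library (0.88), and a mean of 0.51 ± 0.47 (SD, 3 probes). Cdkn2d, encoding p19, read 4040 and 5860 units (0.50). Cdkn2a was the only gene of these lists past 2-fold (2.21-fold higher, with its wild-type-labelled side set to the detection limit). With no floor, or with an offset of 16 units, Cdkn2a was no longer past 2-fold. Its dim probe sits on a spot above 50000 and lay below the detection limit in the wild-type-labelled library. Of the control genes, Actb lay at the median of all genes (-0.05). Hprt at -0.01 and Gapdh at 0.04 ± 0.07 (SD, 8 probes) lay above it.

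**Figure D4:**
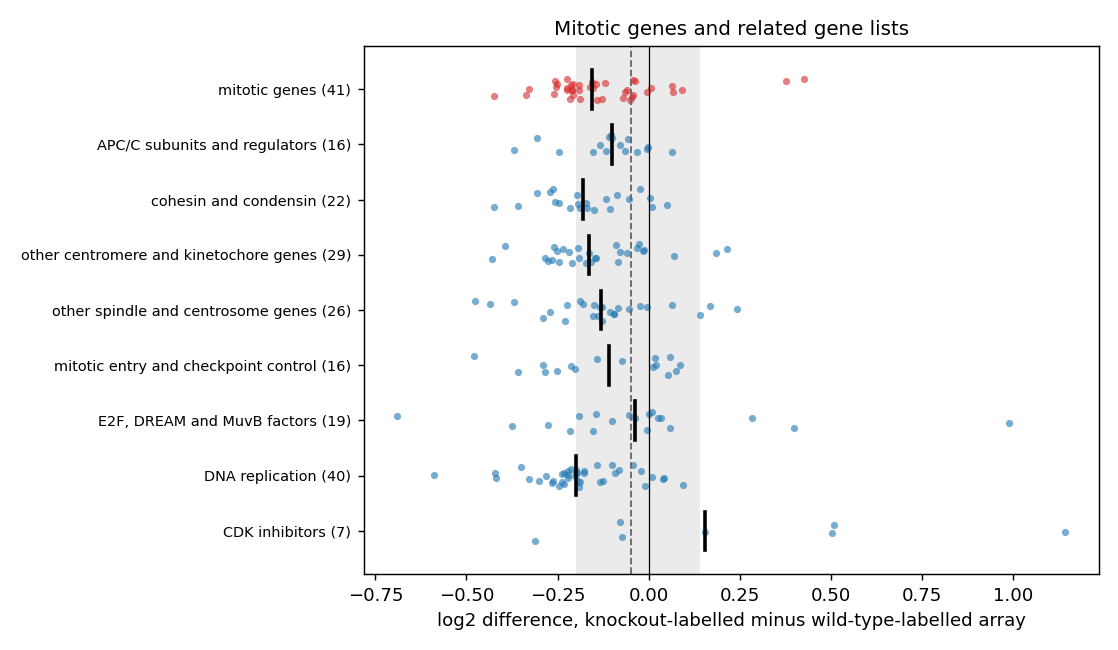
Points are the log2 differences, knockout-labelled minus wild-type-labelled, of the detected genes of each list (number in brackets), bars are medians, the grey band spans the quartiles of all 13411 genes and the dashed line is their median. The medians of the mitotic, cohesin and condensin, kinetochore, spindle and replication lists lie between -0.20 and -0.13, left of the dashed line, and that of the CDK inhibitors lies right of 0.

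The size of the shift depended on how the arrays were scaled, and its place relative to all genes did so less. That place changed more with the floor. With a floor at the 75th percentile the medians were -0.14 for the mitotic genes and -0.06 for all genes, and 26 of 38 mitotic genes lay below the latter. With no filter and no floor the medians were -0.16 and 0.04, and 35 of 41 lay below. With cyclic loess, which removes any trend with signal, 29 of 41 mitotic genes lay below 0 against 47.5% of all genes, and their median was -0.10 against 0.01. Without scaling, 34 of 41 lay below 0 against 52.7% of all genes, with medians of -0.12 and -0.02. Under cyclic loess 31 of the 41 genes lay below the median of all genes, against 30 with 75th percentile scaling. Leaving out the scaling shifts every gene by the same amount, so its count, also 30, was fixed in advance.

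**Figure D5:**
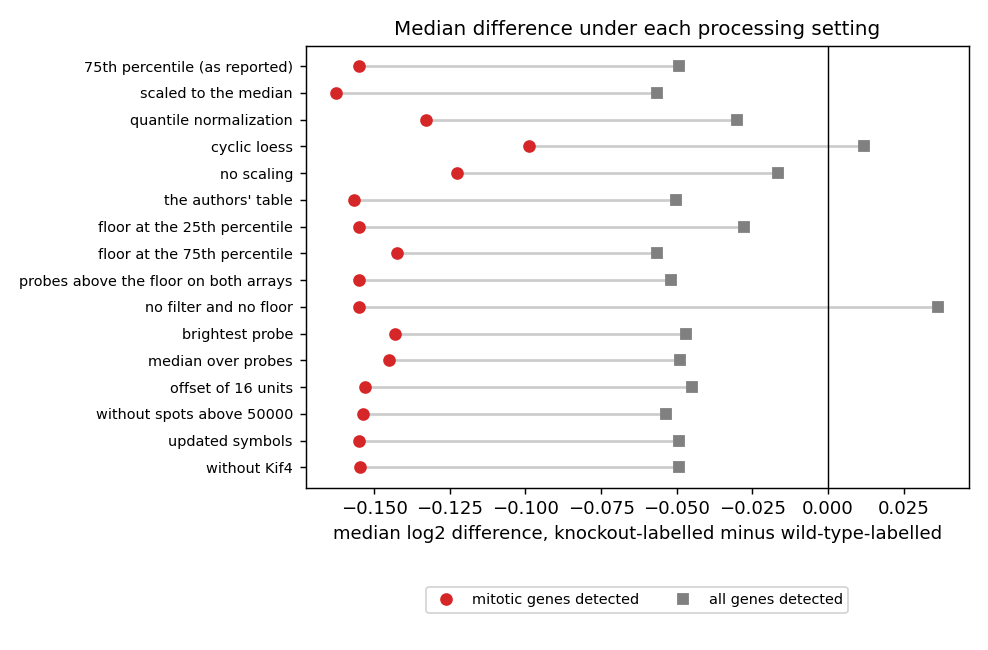
For each processing setting, the red point is the median log2 difference, knockout-labelled minus wild-type-labelled, of the mitotic genes detected and the grey square that of all genes detected. In every setting drawn the red point lies left of the grey square, from -0.16 with median scaling to -0.10 with cyclic loess.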

How the data were processed

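Total RNA (100 ng, per the labels' protocols) from 1 culture of each genotype label was amplified, labelled with Cy3 and hybridised to mouse arrays, whose scans went through Agilent Feature Extraction 11.5.1.1, per the submitters' processing notes. The deposited files give the authors' intensity for each of 59305 spots linear and written to at most 3 significant digits. Their background correction is not stated in the sources used here. A table deposited by the authors, used as an alternative, holds these intensities times a constant (median ratios 2.27 and 2.26, column medians 34.4 and 34.8). It is linear and not centred, and the choice of constants is unknown. The files hold no spot flags.

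Signals were put on the log2 scale, averaged over the spots of each of 55681 probes and scaled to the 75th percentile. Probes at or below the median of both arrays were left out, and an undetected side was set to that median. Genes take the mean of their remaining probes, and signals given for a gene with several are geometric means or single probes. The platform annotation names 31465 spots with 1 symbol. Symbols of other genes were updated through accession (29050 spots), symbol (2061) or synonym (349), and 5 were kept. The mitotic genes kept annotation symbols, and updated symbols left their median and counts the same. With 1 array a label no test was run, and the number of arrays limits the precision.

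The 42 genes and all lists were chosen with earlier results of these data known. The genes named are the 42, up to 4 of each other list with the largest differences each way, the marker lists, Gfi1, Actb, Gapdh and Hprt. Some marker genes are not reported here by name. Xist and Eif2s3y were chosen after their values were seen. Promoters to print were chosen by role after their motifs were seen. Alternatives were other scalings, floors, filters, probe summaries, an offset of 16 units and leaving out spots above feature number 50000. On simulated data of 1 array against 1 (13119 genes), all 36 genes altered 2.5-fold upwards and read at 50 units or more on both arrays were called at 2-fold (100%), as were 81.6% of all 49 altered so. A shift of -0.15 in the mitotic genes came back as -0.16. The noise simulated was that between spots only, without spread between cultures or disagreement between probes. The return of the shift therefore checks the steps and not the precision of the real arrays. Scripts ran under Python 3.11.15, with statsmodels 0.14.6 for loess, numpy 2.4.6 and pandas 2.3.3 for the rest, and matplotlib 3.10.9 for drawing.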

Additional observations from a re-analysis of the deposited data

How the results depend on the processing

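Settings were compared without a test, and a value was taken as moved where it changed by more than 0.05, the median SD over spots at 500 to 5000 units. No cause of a change was tested beyond what a setting does by construction. Cyclic loess moved most medians upwards: all mitotic genes to -0.10 (with 12 higher in place of 6), cyclins and Cdk1 to -0.14, Polo and Aurora kinases to -0.15, the passenger complex to -0.10, the checkpoint to -0.16, kinetochores to -0.10, kinesins to -0.14, the separase axis to -0.043, cytokinesis to 0.072 and the chromosome proteins to 0.039. With the same setting the related lists stood at -0.038 (anaphase promoting complex), -0.12 (cohesin and condensin), -0.10 (kinetochore), -0.068 (spindle), -0.045 (mitotic entry), 0.021 (E2F and DREAM), -0.15 (replication) and 0.22 (CDK inhibitors). A floor at the 75th percentile, which drops dim genes, gave -0.13 for the kinases, -0.14 for the checkpoint, -0.067 for cytokinesis and 0.33 for the CDK inhibitors. The brightest probe gave -0.22 for the passenger complex, -0.13 for the checkpoint, -0.067 for cytokinesis and -0.057 for mitotic entry. The median over probes gave -0.15 for the checkpoint. Without spots above feature number 50000 cytokinesis stood at -0.072 and the CDK inhibitors at 0.32.

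Counts past the threshold depend on it. At 5/4-fold in place of 2-fold, 3 mitotic genes were lower and 2 higher. In the related lists 1 (anaphase promoting complex), 2 (cohesin and condensin), 2 (kinetochore), 3 (spindle), 2 (mitotic entry), 2 (E2F and DREAM) and 5 (replication) were lower, and 2 (E2F and DREAM) and 3 (CDK inhibitors) were higher. The lower counts were 6.25% to 12.5% of the genes detected in these lists, against 12.6% of all genes. The higher ones were 10.5% (2 of 19) and 42.9% (3 of 7), against 14.1% of all genes. In place of 0, 1 E2F and DREAM gene was 2-fold higher with quantile normalization, cyclic loess or no scaling. In place of 1, 0 CDK inhibitors were 2-fold higher with a floor at the 75th percentile, with probes above the floor on both arrays, with no floor, with the offset of 16 units and without spots above 50000. Among single genes, Nuf2 turned to 0.75 with a floor at the 25th percentile or none, Cdca8 to 0.0050 with cyclic loess, and Ect2 to -0.093 with a floor at the 75th percentile or the brightest probe and to -0.10 without spots above 50000. No paired analysis was possible because each group has 1 sample. Dim genes such as Cenpf are limited by a spot SD of 0.35.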

Other observations

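The promoter pattern of the mitotic genes occurs elsewhere among the genes detected. Outside the list, 201 genes held TTTGAA and at least 2 CCAAT boxes in their window. Their median difference was -0.08, and 67.7% lay below 0, against a median of -0.06 and 59.2% for the 9353 genes without TTTGAA. The 1316 genes outside the list with TTTGAA, whatever their CCAAT boxes, had a median of -0.05 with 58.7% below 0, about the values without it. These are descriptions of 1 array against 1, with no test.

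E2f7, a repressor of E2F targets and outside the mitotic list, had 2 probes that disagreed. The first read 802 units in the wild-type-labelled library and 632 units in the knockout-labelled library (-0.38). The other, on a spot above feature number 50000, read 71.9 and 377 units (2.36). Anapc15, a subunit of the anaphase promoting complex, had 3 probes between -0.07 and 0.02 and a further probe on such a spot at -1.14. Ect2 was the mitotic gene with the same kind of disagreement, and in all of these genes the outlying probe was the dimmest.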
